A study of Rattus norvegicus with 35 samples.

Results

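The 10 genes studied here belong to the endoplasmic reticulum (ER). They were Hspa5, Hsp90b1, Calr, Canx, Pdia3, Pdia4, Pdia6, Xbp1, Herpud1 and Dnajb9, and they were followed in the rat retina after the optic nerve was cut or crushed. They were chosen by name, out of 14217 genes with a symbol of their own on the array, and each was read from the probe set with the highest mean over all 35 arrays. Pdia3 had 2 probe sets and Canx 3 to choose from, and the other 8 genes had 1 each. All retinas were left retinas of adult female Sprague-Dawley rats, and for each array the RNA of 4 retinas, each from another animal, was combined. Intraorbital nerve transection (IONT), in which the nerve sheath was opened so that the blood supply was spared, was sampled after 12, 24 and 48 h and 3, 7 and 15 d. Intraorbital nerve crush (IONC), further from the eye, was sampled after 12, 24 and 48 h and 3 and 7 d. There were 3 arrays per group, except 2 each for IONT 24 h, 3 d and 15 d, and 5 arrays of naive, unoperated retinas. Values are log2 signals.

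Proteins that are secreted or set into membranes fold inside the ER. When folding falls behind, the unfolded protein response is set off by 3 sensors in the ER membrane. ATF6 is known to raise the chaperones, as is IRE1 through splicing of Xbp1 RNA, and PERK is known to slow protein synthesis and to act through ATF4 on genes such as Ddit3, Trib3 and Chac1. Hspa5 encodes BiP, the ER chaperone that holds the sensors inactive, Hsp90b1 the ER form of HSP90, and Dnajb9 a co-chaperone of BiP. Calr and Canx encode the lectin chaperones calreticulin and calnexin, and Pdia3, Pdia4 and Pdia6 encode disulphide isomerases. Xbp1 encodes a transcription factor of the response. Herpud1 encodes a membrane protein that serves ER-associated degradation, the route by which misfolded proteins leave the ER. The arrays read total RNA of each gene and not the splicing of Xbp1.

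The promoters of these genes are shown as a description of the elements they hold. A link between these elements and the changes after injury was not tested. RefSeq promoter windows on the GRCr8 rat assembly, 250 bases before to 50 bases after the start site, were matched for 8 of the 10 genes; Pdia3 and Pdia6 are named only. The ER stress response element, CCAAT and CCACG with 9 bases between them on either strand, was found in 5 of the 8 windows and in 22 of 33469 windows overall (0.0657%). Its second type, ATTGG and CCACG with 1 base between them, was found in Herpud1 and in 17 windows overall (0.0508%), and its letters overlap those of the first type at CCACG. In the following stretches, read on the strand of the gene, capitals mark the fixed letters of the element.
Hspa5, chr3:38452968-38452996: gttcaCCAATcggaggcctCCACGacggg
Xbp1, chr14:84604553-84604581: acaggCCAATcgcagacggCCACGaccct
Canx, chr10:35158064-35158092: cttgtCCAATcatcacgctCCACGaagaa
Calr, chr19:40213130-40213158: caacgCGTGGtcgaccctgATTGGcccag
Hsp90b1, chr7:23012446-23012474: caaacCCAATcgaaaggagCCACGcttcg
Hsp90b1, chr7:23012342-23012370: gagtgCGTGGtgaggcacgATTGGtgggt
Herpud1, chr19:10614812-10614840: cgggcgctgATTGGgCCACGttgggcact

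The elements of Hspa5, Xbp1 and Canx lie forward on the gene strand, with first bases at −43, −65 and −230 from the start site. That of Calr is reversed and has its first base at −232. Hsp90b1 holds one in each direction. Neither TGACGTGG, the core bound by XBP1 (0.595% of all windows), nor the cAMP response element TGACGTCA (1.83%) was found in the 8 windows. TGATGNAA, the core of the composite element through which ATF4 acts, was searched for after the values of Herpud1 were known. It was found in Herpud1 alone among the 8 windows and in 3.98% of all windows. A match of letters is a description and does not show that the site is used.

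The retinal origin of the RNA was checked with rod genes. Over the 8 rod markers measured, the mean log2 signal per array was 12.98 to 13.82 in injured retinas, against 13.73 to 13.79 in naive retinas. The genes that mark retinal ganglion cells, the neurons whose axons form the optic nerve, fell with time after both lesions, and 7 of 9 passed the test at 7 d after IONT and at 7 d after IONC. Of all probe sets, 2.62% and 2.18% passed as lower in these 2 groups. Whole retinas were read, so fewer cells of a type and less RNA per cell cannot be told apart. Differences between arrays bear on all values that follow. First, the naive arrays fall into 2 sets, replicates 1 to 3 and replicates 4 and 5, which differed at 7.47% of all probe sets. IONT 24 h, 3 d and 15 d were therefore set against naive replicates 4 and 5, with which they share a difference between the 3′ and 5′ β-actin probe sets of 2.61 to 3.65 (8 arrays), against 1.53 to 1.93 in the 27 others. For changes from naive, all other groups were set against the 5 naive arrays together. Second, IONC 12 h replicate 2 stands apart, its correlation with the rest having a median of 0.871, while the medians of the 34 remaining arrays were 0.962 to 0.992.

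A change was called at a Benjamini-Hochberg adjusted p under 0.01 over 31042 probe sets in a limma fit, a log-odds B above 0 and at least 1.2-fold. After IONT, no gene of the 10 was called at 12 h (3.99% of all probe sets were), 24 h (0.831%), 3 d (0.954%) or 15 d (1.87%). At 48 h, 3 of the 10 were called (5.36% of all probe sets), Calr and Pdia4 higher and Herpud1 lower, and at 7 d Herpud1 alone was called, lower (4.23%). After IONC, Herpud1 alone was called at 12 h (7.76%). Calr, higher, and Herpud1, lower, were called at 24 h (3.94%) and 7 d (3.60%), and with them Pdia4, higher, at 48 h (4.37%). Calr alone was called, higher, at 3 d (3.44%). Thus 4 of 60 changes were called after IONT and 9 of 50 after IONC. Without IONC 12 h replicate 2, 11 changes were called after IONT and 19 after IONC. The background was then 8.06%, 2.56%, 10.9%, 3.11%, 11.2% and 4.07% of all probe sets for IONT in order of time and 8.89%, 8.39%, 9.45%, 8.75% and 8.30% for IONC. With naive replicates 1 to 3 in place of all 5, 2 were called after IONT and 3 after IONC, all of Herpud1, with a background of 1.05%, 2.06% and 0.976% for IONT 12 h, 48 h and 7 d and of 4.14%, 0.896%, 1.36%, 0.348% and 0.577% for IONC. With both alternatives together, 7 and 11 were called, beside 2.95%, 5.13% and 4.97% at the same IONT times and 4.79%, 3.54%, 4.83%, 2.05% and 2.12% for IONC.

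**Figure D1:**
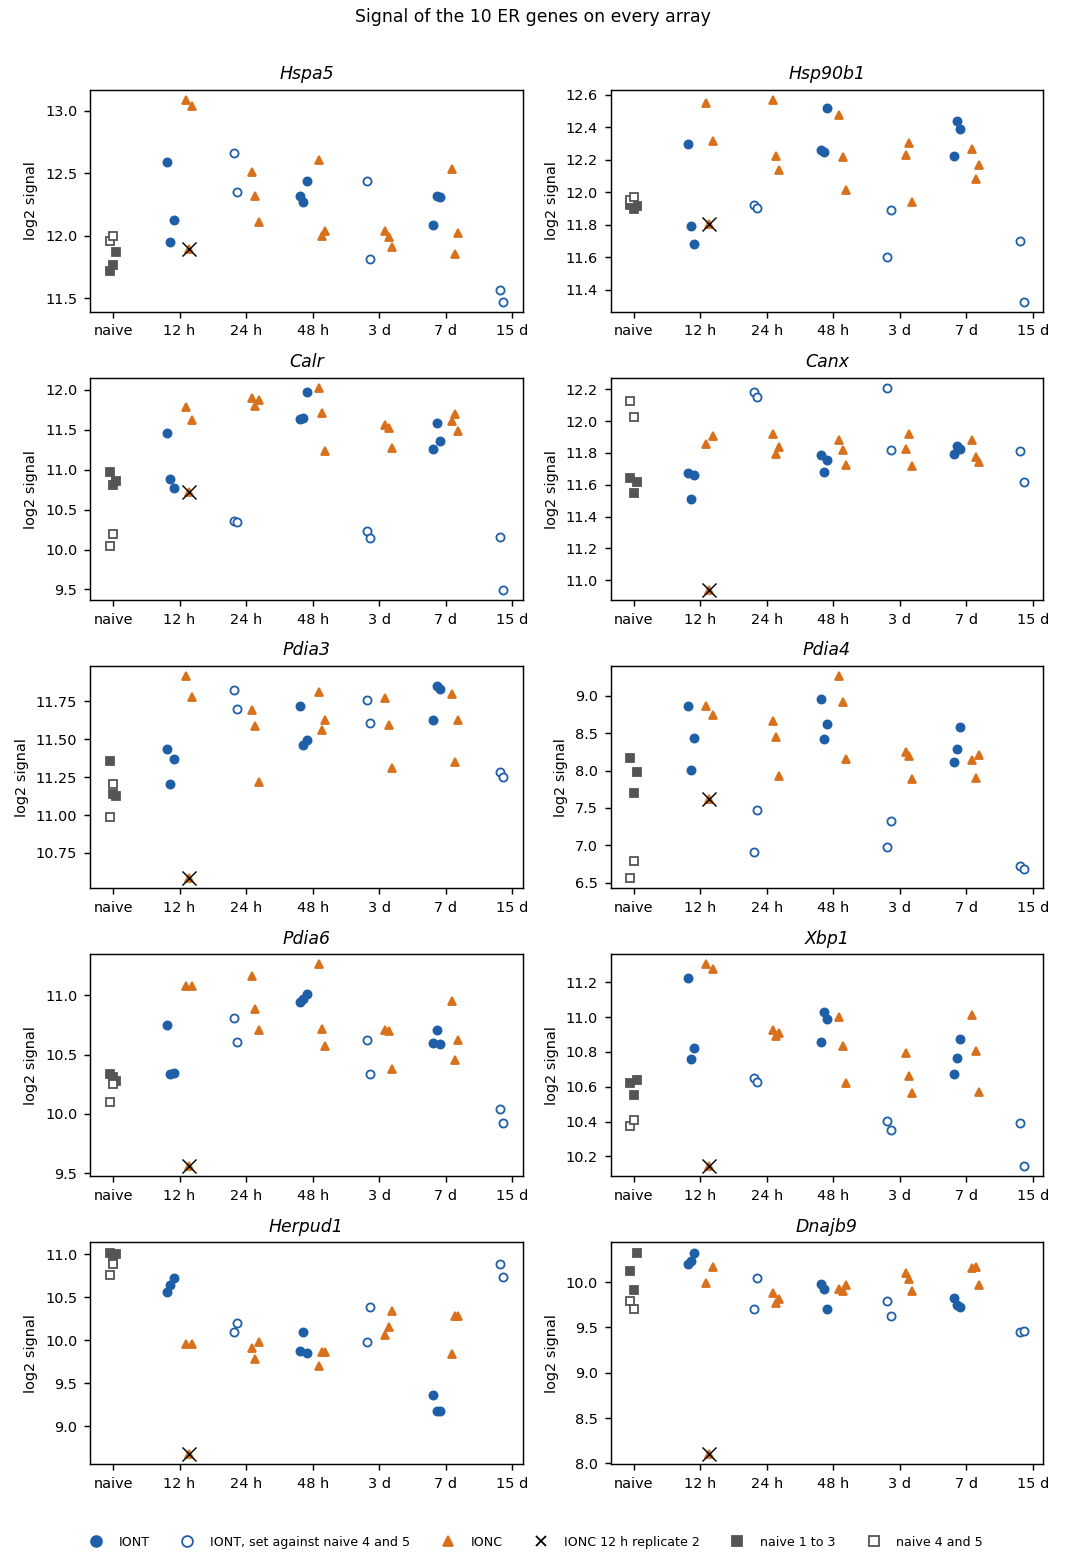
Log2 signal (vertical axis) of each of the 10 genes on every array, by time after injury (horizontal axis), with IONT as circles, IONC as triangles and naive retinas as squares at the left. Open symbols are arrays set against naive replicates 4 and 5, and the cross marks IONC 12 h replicate 2. Herpud1 lies below all naive arrays in every injured group but IONT 15 d. Calr and Pdia4 read lower, and Canx higher, in naive replicates 4 and 5 than in naive replicates 1 to 3.

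Herpud1 was the gene that fell. Its change of −1.68 at 7 d after IONT was larger than any other change from naive among the 10 genes, and it was above naive in no group. At 12 h after IONT it read 10.56, 10.65 and 10.72, against 11.02, 10.91, 11.00, 10.76 and 10.89 in naive retinas 1 to 5, and at 48 h 9.88, 10.10 and 9.85. At 7 d after IONT it read 9.36, 9.18 and 9.18, the lowest of any group but for 1 array. The IONT groups at 12 h, 48 h and 7 d thus lie below every naive array, and each lies wholly below the one before. Of all probe sets, 6.62% lay below the naive arrays in this way at 12 h, 9.08% at 48 h and 3108 of 31042 at 7 d. At 48 h, 8.97% of all probe sets lay wholly below the 12 h arrays, and at 7 d 11.4% lay wholly below the 48 h arrays. The change from naive was −0.97 ± 0.19 at 48 h (log2 ± SE, n = 3 against 5, adjusted p = 0.000786 by limma) and −1.68 ± 0.19 at 7 d (adjusted p = 1.57e-06), while −0.27 at 12 h did not pass (adjusted p = 0.61). Against naive replicates 1 to 3 the changes were −1.04 at 48 h (adjusted p = 0.00315) and −1.74 at 7 d (adjusted p = 1.42e-05), and both calls stood.

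At 24 h after IONT, Herpud1 read 10.09 and 10.20, and at 3 d 9.98 and 10.39, against 10.76 and 10.89 in naive replicates 4 and 5. These groups lie below their naive arrays as well, with changes of −0.68 ± 0.25 and −0.64 ± 0.25 that did not pass the test (adjusted p = 0.265 and 0.288) and did without IONC 12 h replicate 2 (adjusted p = 0.00313 and 0.0043). With 2 arrays in each group, 23.6% and 37.2% of all probe sets lay below both naive arrays at 24 h and 3 d. At 15 d, Herpud1 read 10.89 and 10.74, the first level with the higher and the second just below the lower of the same naive arrays (change −0.01, adjusted p = 0.992). The step between 24 h and 15 d was 0.67 ± 0.25 and did not pass with all arrays (adjusted p = 0.167). It passed without IONC 12 h replicate 2 (adjusted p = 0.00184), as did the step between 3 d and 15 d of 0.63 (adjusted p = 0.00558). Among the 10 genes no other step from 3 d to 15 d passed, with all arrays (1.01% of all probe sets) or without that array (2.43%), and none from 24 h to 3 d (0.403% and 1.04%).

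After IONC, Herpud1 was already low at 12 h, with 9.96, 8.68 and 9.96, where 8.68 comes from the array that stands apart. It read 9.91, 9.78 and 9.98 at 24 h, 9.71, 9.87 and 9.86 at 48 h, 10.06, 10.16 and 10.34 at 3 d and 9.84, 10.28 and 10.29 at 7 d. All 15 IONC arrays lie below all 5 naive arrays. Of all probe sets, 8.24%, 7.20%, 7.05%, 7.96% and 7.32% did so in order of time. The change from naive was −1.39 at 12 h (adjusted p = 1.12e-05), and −0.96 without replicate 2 (adjusted p = 1.9e-06). At the 4 later times it was −1.03, −1.11, −0.73 and −0.78 in order (SE 0.19 each). The change at 3 d did not pass (adjusted p = 0.0149) and that at 7 d is the least stable call of the 10 genes. It was lost against naive replicates 1 to 3 (adjusted p = 0.0423), without any single naive array and with the arrays centred on their medians, and it was kept in 14 of 49 alternatives. With both alternatives together, all 5 IONC changes of Herpud1 passed.

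Calr rose at 48 h after IONT and at 24 h, 48 h, 3 d and 7 d after IONC. It read 11.63, 11.65 and 11.97 at 48 h after IONT, against 10.97, 10.81, 10.86, 10.05 and 10.20 in naive retinas, a change of 1.17 ± 0.20 (adjusted p = 0.000214). After IONC it read 11.89, 11.79 and 11.87 at 24 h, 12.02, 11.71 and 11.23 at 48 h, 11.56, 11.52 and 11.27 at 3 d and 11.60, 11.70 and 11.49 at 7 d. All these arrays lie above every naive array. Of all probe sets, 14.9% did so at 48 h after IONT and 13.5%, 21.1%, 37.0% and 39.3% at these IONC times. The changes after IONC were 1.28, 1.08, 0.88 and 1.02, and all 4 were called. At 12 h after IONC the change of 0.80 passed the adjusted p (0.00543) but not the B limit, and likewise that of 0.82 at 7 d after IONT (adjusted p = 0.00862).

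These calls of Calr depend on the naive arrays used. Naive replicates 4 and 5 read lower than replicates 1 to 3, with a difference of −0.76 that did not pass (adjusted p = 0.0415). Against replicates 1 to 3 alone every call of Calr was lost, with 0.87 at 48 h after IONT (adjusted p = 0.0238) and 0.97, 0.78, 0.57 and 0.72 at 24 h, 48 h, 3 d and 7 d after IONC. With IONC 12 h replicate 2 left out as well, the changes at 48 h after IONT (adjusted p = 0.00198) and at 24 and 48 h after IONC (adjusted p = 0.00117 and 0.00589) passed. Against naive replicates 4 and 5, Calr read 10.35 and 10.34 at 24 h after IONT, 10.23 and 10.14 at 3 d and 10.16 and 9.50 at 15 d, and no change passed (0.22, 0.06 and −0.30).

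Canx, which shares substrates with Calr, was not called at any time. Its changes from naive ran from −0.36 at 15 d after IONT (95% interval −0.75 to 0.02) to 0.09 at 24 h after IONT (−0.29 to 0.47), and at 48 h after IONC the interval was −0.26 to 0.30 around 0.02. These values depend on the naive arrays used. Naive replicates 4 and 5 read higher than replicates 1 to 3 by 0.47, which did not pass (adjusted p = 0.0658 by limma). With both alternatives the changes were 0.01, 0.14 and 0.22 at 12 h, 48 h and 7 d after IONT. After IONC they were 0.28, 0.25, 0.21, 0.22 and 0.20 in order of time, and none was called. A second probe set of Canx gave other values, with 0.95 at 48 h (adjusted p = 0.00785, B not above 0) and 1.17 at 7 d after IONT, which was called (adjusted p = 0.00173). Another probe set gave 0.28 at 7 d after IONT (adjusted p = 0.382), so the probe sets of this gene disagree.

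**Figure D2:**
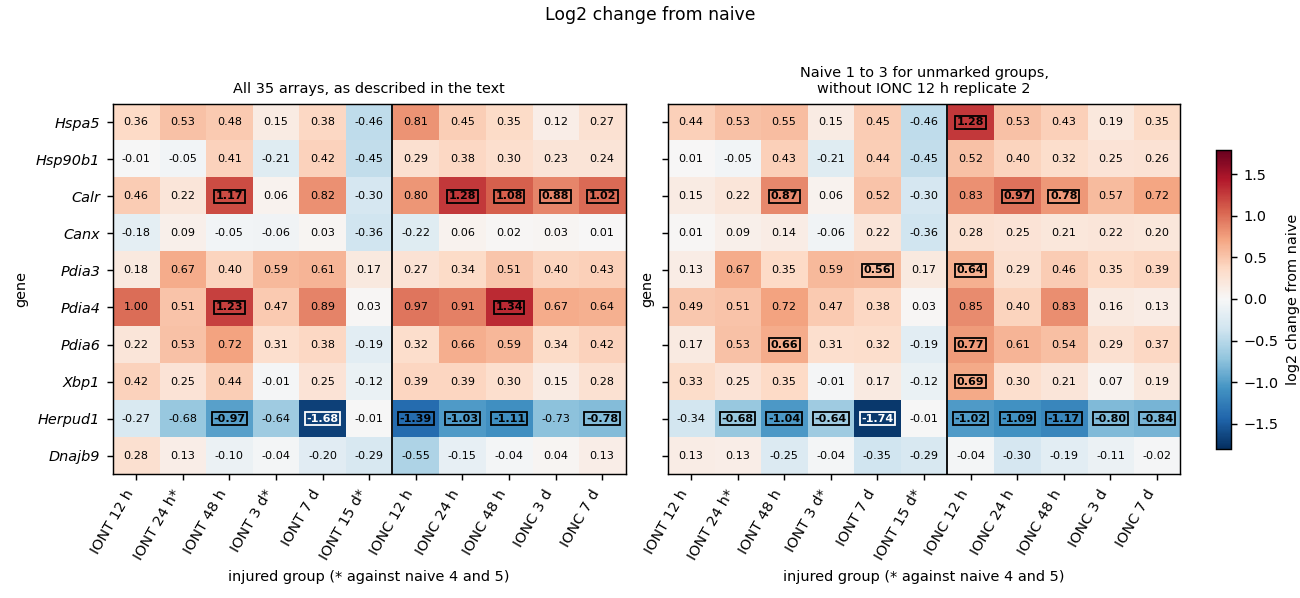
Log2 change from naive (colour and number) of the 10 genes (vertical axis) in the 6 IONT and 5 IONC groups (horizontal axis), with boxes around called changes. With all 35 arrays (left) Herpud1 is lower in all groups, with −0.01 only at IONT 15 d, and Calr, Pdia4 and Herpud1 hold all calls; with naive replicates 1 to 3 and without IONC 12 h replicate 2 (right) Pdia4 holds none and Hspa5, Pdia3, Pdia6 and Xbp1 are called at IONC 12 h.

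Hspa5, a widely used marker of the response, was highest early after the crush. At 12 h after IONC it read 13.08, 11.89 and 13.04, against 11.72, 11.77, 11.87, 11.96 and 12.00 in naive retinas. Replicates 1 and 3 are the highest of all 35 arrays, and replicate 2, the array that stands apart, lies within the naive range. The change was 0.81 ± 0.22 with all arrays (adjusted p = 0.00911, B not above 0) and 1.1999 without replicate 2 (adjusted p = 6.42e-05), when it was called. At 12 h after IONT Hspa5 read 12.59, 11.95 and 12.12, at 48 h 12.32, 12.27 and 12.44 and at 7 d 12.09, 12.32 and 12.31. The arrays at 48 h and 7 d lie above all naive arrays, where 14.9% and 39.5% of all probe sets did, and the changes of 0.48 and 0.38 did not pass (adjusted p = 0.201 and 0.352). At 24 h after IONT it read 12.66 and 12.35, at 3 d 12.44 and 11.81 and at 15 d 11.56 and 11.47, against 11.96 and 12.00 in naive replicates 4 and 5. The 15 d arrays lie below both, as did 42.1% of all probe sets. The step of −0.99 ± 0.30 between 24 h and 15 d missed the test with all arrays (adjusted p = 0.0582) and passed without IONC 12 h replicate 2 (adjusted p = 0.00489).

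Hsp90b1 was not called in any group. It read 12.26, 12.25 and 12.52 at 48 h after IONT and 12.23, 12.44 and 12.39 at 7 d, against 11.90 to 11.97 in the 5 naive arrays, and the changes of 0.41 and 0.42 (SE 0.15) did not pass (adjusted p = 0.0942 and 0.091). The naive arrays agreed closely for this gene, while the 3 arrays at 12 h after IONT spread over 11.68 to 12.30. At 15 d it read 11.70 and 11.33, below 11.95 and 11.97 in naive replicates 4 and 5, which again 42.1% of all probe sets did. Dnajb9 was not called in any group either, and its changes ran from −0.55 at 12 h after IONC (95% interval −1.08 to −0.02) to 0.28 at 12 h after IONT (−0.25 to 0.81). The first of these rests on replicate 2, which read 8.10 beside 9.99 and 10.17. Without it the change was 0.11.

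Of the disulphide isomerases, Pdia4 had the largest increases and the least certain ones. It read 8.96, 8.43 and 8.63 at 48 h after IONT and 9.26, 8.92 and 8.16 at 48 h after IONC, against 8.17, 7.71, 7.98, 6.56 and 6.79 in naive retinas. The IONT arrays lie above all naive arrays, as did 14.9% of all probe sets. For IONC, 1 array lies just below the highest naive array. The changes of 1.23 ± 0.26 (adjusted p = 0.00216) and 1.34 ± 0.26 (adjusted p = 0.00131) were called. Naive replicates 4 and 5 differed from replicates 1 to 3 by −1.28 (adjusted p = 0.00738, B not above 0), which is of the size of the changes themselves. Against replicates 1 to 3 the changes were 0.72 and 0.83 and no longer passed (adjusted p = 0.264 and 0.148), nor did any change of Pdia4 with both alternatives. Against naive replicates 4 and 5, Pdia4 read 6.90 and 7.47 at 24 h after IONT and 6.97 and 7.32 at 3 d, both above, as were 23.0% and 17.8% of all probe sets, and 6.72 and 6.68 at 15 d, between them.

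Pdia6 and Pdia3 were not called with all arrays. Pdia6, which acts with BiP, read 10.94, 10.96 and 11.01 at 48 h after IONT, against 10.10 to 10.34 in naive retinas. These arrays lie above every naive array, as did 14.9% of all probe sets. The change of 0.72 ± 0.23 (adjusted p = 0.0458) was called without IONC 12 h replicate 2, also against naive replicates 1 to 3 (0.66, adjusted p = 0.00531). Pdia3, which works with the lectin chaperones, read 11.63, 11.85 and 11.83 at 7 d after IONT, against 10.99 to 11.36 in naive retinas (0.61 ± 0.19, adjusted p = 0.0487; against replicates 1 to 3 and without IONC 12 h replicate 2, 0.56, adjusted p = 0.00431). Both lie high at 12 h after IONC except on replicate 2, with 11.08, 9.56 and 11.08 for Pdia6 and 11.91, 10.59 and 11.78 for Pdia3. With that array the changes were 0.32 and 0.27. Without it they were 0.82 (adjusted p = 0.0005) and 0.69 (adjusted p = 0.0006), and both were called. The second probe set of Pdia3 had a lower mean signal of 5.64. With all arrays it gave 0.25 at 7 d after IONT (adjusted p = 0.133 by limma) and 0.17 at 12 h after IONC, neither called.

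Xbp1 was not called with all arrays. It read 11.23, 10.76 and 10.82 at 12 h after IONT, against 10.37 to 10.64 in naive retinas, all above, where 7.98% of all probe sets did the same, and the change of 0.42 ± 0.17 did not pass (adjusted p = 0.181). At 48 h after IONT it read 10.86, 11.03 and 10.99 (0.44, adjusted p = 0.119). At 12 h after IONC it read 11.30, 10.14 and 11.28, a change of 0.39 with replicate 2 (adjusted p = 0.0656) and 0.77 without it (adjusted p = 2.92e-05). At 3 d and 15 d after IONT it read 10.40 and 10.35, and 10.39 and 10.15, near 10.37 and 10.41 in naive replicates 4 and 5.

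**Figure D3:**
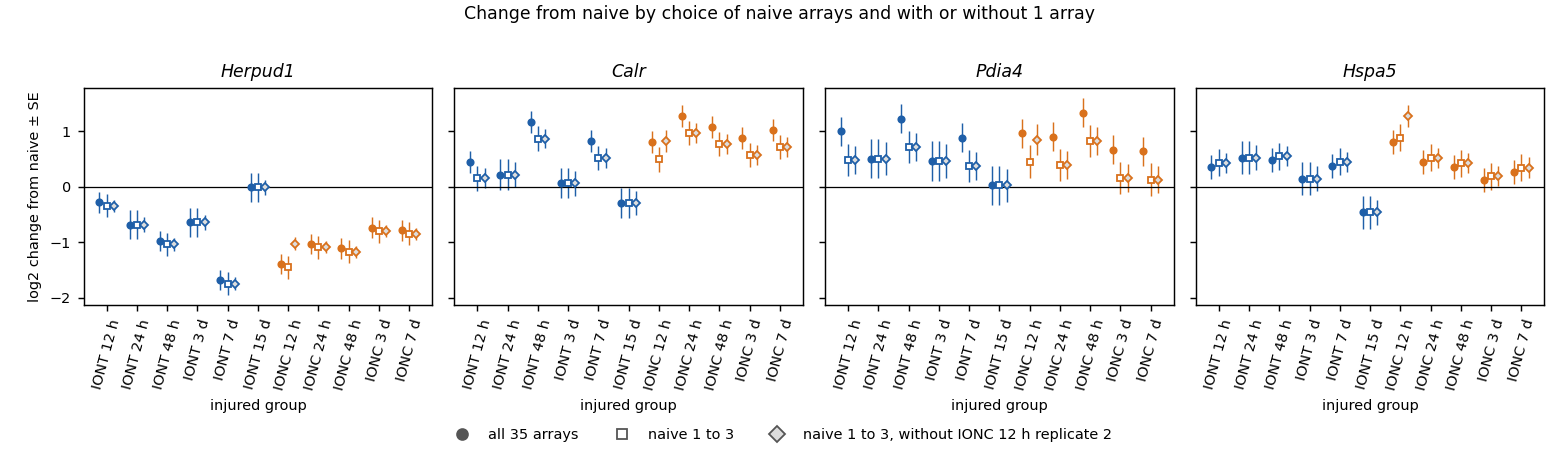
Log2 change from naive ± SE of the fit (vertical axis) for Herpud1, Calr, Pdia4 and Hspa5 in each injured group (horizontal axis, IONT blue and IONC orange), under 3 choices of arrays. Herpud1 keeps its size under all 3 except at IONC 12 h, Calr and Pdia4 are smaller where naive replicates 1 to 3 replaced all 5, and Hspa5 at IONC 12 h is larger without replicate 2.

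Over the 10 genes, the median change was 0.25, 0.42 and 0.38 at 12 h, 48 h and 7 d after IONT, beside 0.01, 0.03 and 0.06 over all probe sets. After IONC it was 0.30, 0.38, 0.33, 0.19 and 0.28 at 12, 24 and 48 h, 3 d and 7 d, beside 0.07, 0.03, 0.03, 0.06 and 0.06 over all. With both alternatives the medians of the 10 genes were 0.14, 0.39 and 0.35 after IONT and 0.66, 0.35, 0.38, 0.21 and 0.23 after IONC, and the value at 12 h after IONC moved most. At 24 h, 3 d and 15 d after IONT, against naive replicates 4 and 5, it was 0.24, 0.02 and −0.24, beside 0.00, −0.02 and −0.04. In the mean, 8 of the 10 genes lay above naive at 24 h and 2 at 15 d. With both arrays, 7 lay wholly above and 2 wholly below the naive arrays at 24 h, beside 23.0% and 23.6% of all probe sets. At 15 d, 1 lay wholly above and 5 wholly below, beside 24.4% and 42.1%. From 24 h to 15 d after IONT, 9 of the 10 genes had a negative step and Herpud1 a positive one, and the share over all probe sets was not counted. None of these steps passed with all arrays (1.89% of all probe sets did), and those of Hspa5, Canx and Herpud1 passed without IONC 12 h replicate 2 (5.02%). The markers of lens, a tissue next to the retina, were also low in these groups, though they varied widely between other arrays too. Their mean over 6 genes was 7.30 to 10.32 in naive replicates 1 to 3 and 6.53 to 9.53 at 24 h after IONC. In naive replicates 4 and 5 it was 10.003 to 10.81. After IONT it was 4.97 to 6.08 at 15 d, 6.34 to 6.97 at 3 d and 5.91 to 9.58 at 24 h. Of the 6, 3 were called lower at 15 d (0.341% of all probe sets were). Of the pigment epithelium, which also borders the retina, all 4 measured markers lay below naive replicates 4 and 5 in the mean of each of these groups, with a median change of −1.08 at 24 h, −1.596 at 3 d and −1.22 at 15 d, and none was called. The part of either tissue in the changes at 15 d was not tested.

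The lesions were compared directly at 12 h, 48 h and 7 d, and at 24 h and 3 d as the difference of 2 changes. In these differences IONC was set against naive replicates 1 to 3 only, and IONT against the same naive arrays as before. Of 50 differences, 1 was called, Herpud1 at 12 h (1.32% of all probe sets at this time), with 9.96, 8.68 and 9.96 after IONC, against 10.56, 10.65 and 10.72 after IONT. The IONC arrays lie below the IONT arrays, as they did at 8.62% of all probe sets. The difference was −1.11 ± 0.21 (adjusted p = 0.00282), and −0.68 without IONC 12 h replicate 2 (adjusted p = 0.00262; 0.986% of all probe sets), still called. At 7 d the order was reversed, with 9.84, 10.28 and 10.29 after IONC, against 9.36, 9.18 and 9.18 after IONT. This difference of 0.90 ± 0.21 did not pass with all arrays (adjusted p = 0.0937; 0.0548% of all probe sets did) and was called without that array (adjusted p = 9.1e-05; 0.229%). Herpud1 was thus lower after the crush than after the cut at 12 h, and higher after the crush at 7 d only in the fit without that array. Hspa5 at 12 h differed by 0.45 with all arrays and by 0.84 without replicate 2 (adjusted p = 0.0263), and neither passed. At 48 h the lesions gave differences for the 10 genes of −0.14 to 0.11, none called (0.145% of all probe sets were), with 95% intervals that lie within −0.66 to 0.71. At 24 h and 3 d none was called either (0.235% and 0.126%). This depends on the naive arrays used. With all naive arrays for every group, Calr was called at both times, higher after IONC (1.51 and 1.26).

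Steps between times of one lesion showed no call among the 10 genes with all arrays, for IONT 12 to 48 h (0.200% of all probe sets), IONT 48 h to 7 d (0.705%), IONC 12 to 48 h (0.316%) and IONC 48 h to 7 d (0.0354%). Herpud1 had a change of −0.70 ± 0.21 in each of the IONT steps (adjusted p = 0.199 and 0.115), and both steps were called without IONC 12 h replicate 2 (adjusted p = 0.000721 and 0.000252; 1.21% and 2.65% of all probe sets). After IONC, its steps were 0.28 and 0.33, neither called.

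Other genes of the pathway were taken from lists. Of 20 further folding enzymes and co-chaperones of the ER, none was called lower. Called higher were 2, 4, 3 and 1 at 12 h, 48 h, 7 d and 15 d after IONT and none at 24 h and 3 d, beside 1.89%, 2.40%, 1.61% and 1.53% of all probe sets called higher at these 4 times. After IONC they were 4, 4, 3, 2 and 1 in order of time, beside 1.90% of all probe sets called higher at 12 h, 498 of 31042 at 24 h and 1.89%, 1.21% and 1.42% at the later times. With both alternatives 1, 1, 2, 1, 0 and 1 were called higher after IONT and 5, 4, 3, 0 and 0 after IONC. By group, 0.648% to 3.13% of all probe sets were then called higher. Ppib, a cyclophilin of the ER, rose by 0.88, 1.01 and 0.82 at 12 h, 48 h and 7 d after IONT and by 0.81, 1.06, 1.01, 0.72 and 0.84 at the IONC times. Manf, a secreted survival factor held in the ER by BiP, rose by 0.95, 0.90 and 0.82 at 12 h, 48 h and 7 d after IONT, and by 1.40 (adjusted p = 1.8e-05) and 0.86 at 12 and 24 h after IONC. Hyou1, a large ER chaperone, rose by 0.93 and 1.04 at 48 h and 7 d after IONT and by 0.88, 1.15, 1.22 and 0.88 at the first 4 IONC times. The calls of all 3 genes were thus spread over both lesions. Prkcsh, the β subunit of glucosidase II, was called at 48 h after IONT (0.95) and at 12, 24 and 48 h after IONC (0.69, 0.84 and 0.81). Sil1, which recharges BiP, was called at 15 d after IONT (0.89). Both were named after their values were seen. With both alternatives, no call of Hyou1 was left, Ppib was called at 12 and 24 h after IONC only and Manf at 12 h after IONC only. Sdf2l1, a partner of ER co-chaperones, was not called with all arrays, with 1.30, 1.35 and 0.61 at 12 h, 48 h and 7 d after IONT and 1.63, 1.49 and 0.87 after IONC, and with both alternatives it was called in 6 groups, with 2.91 at 12 h after IONC. Creld2, a disulphide isomerase named after its values were seen, was likewise called at 12 h after IONC only with both (0.91).

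The machinery that removes proteins from the ER, to which Herpud1 belongs, showed no gene called lower. By group, 0.612% to 2.40% of all probe sets were called higher and 0.219% to 5.86% lower. With both alternatives these shares were 0.648% to 3.13% and 0.860% to 3.09%. Of 18 measured genes of ER-associated degradation, Os9, a lectin that hands over misfolded glycoproteins, was the only one called, higher at 48 h after IONT (0.70, adjusted p = 0.00457) and after IONC (0.95, adjusted p = 0.000329). With both alternatives the change after IONT was 0.62 and was not called, while that after IONC of 0.87 still was. Syvn1, Edem2 and Ube2j1 were not called, and the median of the list at 48 h was 0.03 after IONT and 0.06 after IONC. At 12 h after IONC the median was −0.37, with 15 of 18 genes below naive, and 0.10 with both alternatives. Of 8 measured sensors and their proteases, Atf6 was the only one called with all arrays, higher at 12 h and 48 h after IONT and 24 h and 7 d after IONC, by 1.06 to 1.26. These calls were lost against naive replicates 1 to 3 without IONC 12 h replicate 2, where the changes were 0.03 to 0.23. With both alternatives, Atf6 was called at 24 h (0.87) and 15 d (0.94) after IONT instead, and Eif2ak3, which encodes PERK, at 12 h (1.02) and 48 h (1.17) after IONT. Creb3, a transcription factor of the ER membrane, was then called higher in 8 groups, at 24 h (0.43), 48 h (0.40), 3 d (0.93) and 7 d (0.36) after IONT and from 24 h to 7 d after IONC (0.37, 0.43, 0.46 and 0.40). Mbtps1, which encodes site-1 protease, was called lower at 24 h after IONT (−0.45). Creb3 and Mbtps1 were named after their values were seen. Among 16 genes of the import channel and signal peptidase, Sec11c, a peptidase subunit, rose by 0.91 at 48 h after IONT (adjusted p = 0.00229) and by 0.85 at 48 h after IONC (adjusted p = 0.00575), and Sec61g, a channel subunit, by 0.51 at 48 h after IONT (adjusted p = 0.00559). All 3 changes also passed with both alternatives, and all 16 genes of this list lay above naive at 48 h after either lesion. The list medians at 48 h were 0.29 after IONT and 0.33 after IONC, beside 0.03 over all probe sets after either.

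Of 10 genes of the PERK branch, 5 were called lower at 7 d after IONT (2.62% of all probe sets were) and 6, 5, 4, 2 and 2 at the IONC times in order (5.86%, 2.34%, 2.49%, 2.24% and 2.18%). With all arrays none was called lower in the other IONT groups. With both alternatives 7 were called lower at 7 d after IONT (2.73%) and 5, 6, 5, 4 and 5 after IONC (2.37%, 2.34%, 3.09%, 1.40% and 1.32%), and 1, 1 and 2 at 12, 24 and 48 h after IONT (1.38%, 0.860% and 3.09%). Chac1, which breaks down glutathione, changed by −3.99 at 7 d after IONT (adjusted p = 4.82e-06) and by −4.70, −2.86, −2.31, −2.04 and −2.28 at the 5 times after IONC in order, all called. Trib3, a pseudokinase that restrains ATF4, changed by −3.09 at 7 d after IONT and by −3.72, −2.18 and −3.19 at 12, 24 and 48 h after IONC, all called, and Sesn2, a stress-induced regulator of growth signalling, by −1.78 at 7 d after IONT and by −3.28 and −1.81 at 12 and 24 h after IONC, all called. Nupr1, a stress-induced chromatin protein, was called higher, with 3.71 at 12 h after IONT (adjusted p = 0.000219) and 3.54, 3.77 and 2.94 at 12 h, 48 h and 3 d after IONC, the last of these not with both alternatives. The genes called lower at 7 d after IONT were these 3 with Atf4 (−0.67) and Asns (−2.89), and at 12 h after IONC Ddit3 (−1.43) besides. Atf4, Asns and Ddit3 were named after their values were seen. All 5 calls at 7 d after IONT stood with both alternatives, and 5 of the 6 at 12 h after IONC, all but Asns. The sizes given for 12 h after IONC include replicate 2, the array that stands apart. The median of the 10 genes of this branch there was −1.46 with all arrays and −0.94 with both alternatives. At 15 d after IONT, where Herpud1 was at the naive level, Chac1, Trib3 and Sesn2 stood at 0.52, 0.80 and 0.66, none called. Herpud1 and these genes were read on the same arrays, so that the likeness is a description.

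**Figure D4:**
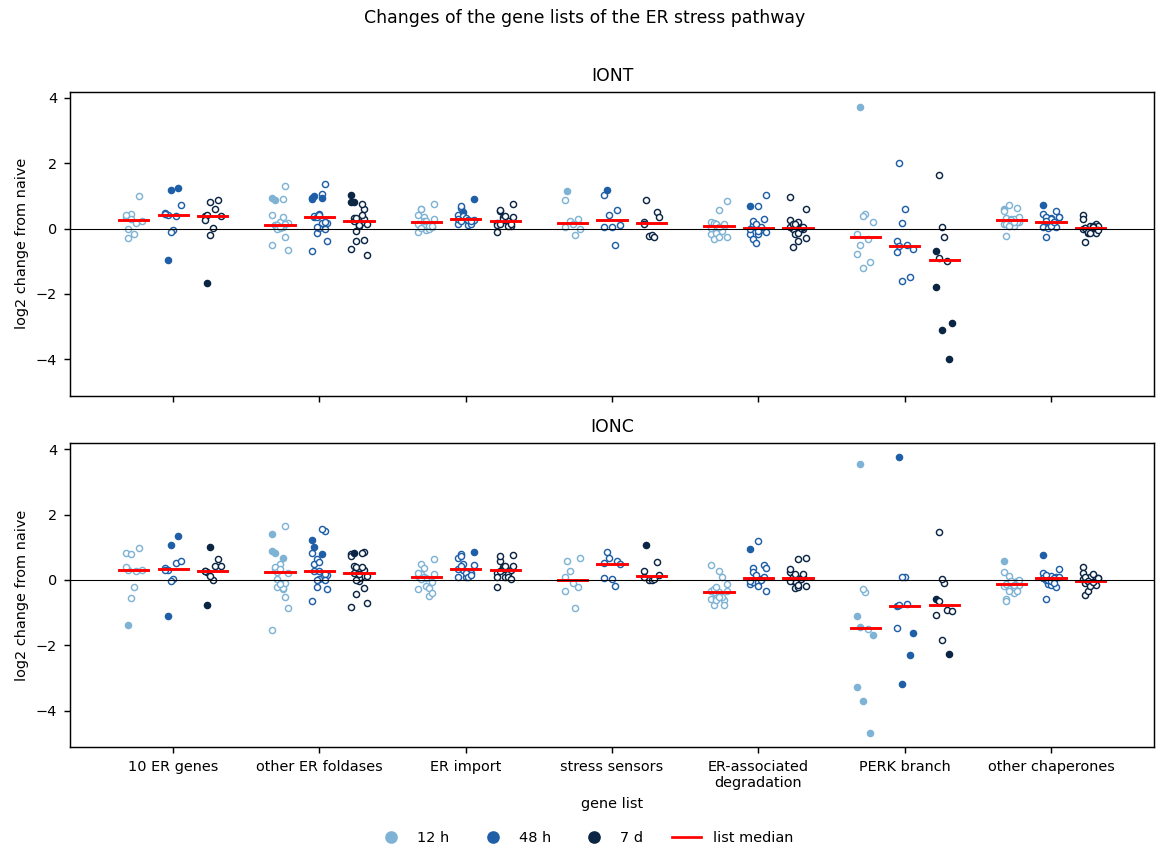
Log2 change from naive (vertical axis) of every measured gene in 7 lists of the pathway (horizontal axis) at 12 h, 48 h and 7 d after IONT (above) and IONC (below). Filled points were called and red bars are list medians; the PERK branch has medians of −0.95 at IONT 7 d and −1.46 at IONC 12 h, and those of the ER foldases and the import channel lie above 0 throughout.

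Chaperones outside the ER were measured for comparison. By group, 0.612% to 2.40% of all probe sets were called higher with all arrays and 0.648% to 3.13% with both alternatives. Called lower with all arrays were 0.219% to 5.86%. Of 19 such genes of the cytosol and mitochondria, Hsp90ab1, the constitutive cytosolic HSP90, was the only one called with all arrays, higher at 12 h (0.60) and 48 h (0.74) after IONT and at 12, 24 and 48 h after IONC (0.58, 0.58 and 0.76). With both alternatives it was called at 48 h after IONT (0.51) and at 12 and 48 h after IONC (0.59 and 0.53), and the changes at 12 h after IONT (0.38) and 24 h after IONC (0.35) were lost. Called in its place at 12 h after IONT were Hspe1 (0.50), Hsph1 (0.73) and Cct5 (0.33), Hsph1 also at 12 h after IONC (0.80) and Cct5 at 24 and 48 h after IONT (0.43 and 0.33). Hsph1 and Cct5 were named after their values were seen. Hspa4 and Dnajb1 were not called. Among measured genes outside the 10, 12 hold the ER stress response element in their window, Creld2 and Dnajc3 among them. At 12 h after IONC, Creld2 and Dnajc3 had 0.41 and 0.47 with all arrays, neither called. With both alternatives they had 0.91 and 0.89, and only Creld2 was called. Zfp57 was called higher at 24 h, 3 d and 15 d after IONT and Pan2 lower at 7 d after IONT (−1.36) and 12 h after IONC (−1.41), both named after their values were seen. With both alternatives Pan2 had −0.75 at 7 d after IONT, still called, and −0.18 at 12 h after IONC, not called. With all arrays 5 to 8 of the 12 lay above naive in each group.

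Across the 12 group means the gene most like Hspa5 was Enpp3, an ectonucleotidase (Pearson r = 0.89), followed by Card14 (0.87), Sdf2l1 (0.83), Cenpu (0.83) and Samhd1 (0.82). Among the 10 genes, Calr went with Hsp90b1 (r = 0.94) and Pdia4 (0.93) over the same 12 means, and Herpud1 against Hsp90b1 (−0.76), Pdia3 (−0.71) and Hspa5 (−0.68). These means span both sets of arrays. Over the 9 means of groups set against all naive arrays, with naive replicates 1 to 3, the values were 0.85 and 0.48 for Calr and −0.88, −0.80 and −0.69 for Herpud1.

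Cell markers changed beside these genes. By group, 0.612% to 2.40% of all probe sets were called higher and 0.219% to 5.86% lower. Reactive glia markers rose, with 4 of 7 called at 12 h and 48 h after IONT and at 12 and 24 h, 3 d and 7 d after IONC, and 5 at 48 h after IONC. Their mean per array was 6.89 to 10.62 in injured retinas, against 6.45 to 6.61 in naive retinas. All 9 microglia and macrophage markers lay above naive in every group but IONT 24 h, IONT 15 d and IONC 24 h, with 3 called higher at 48 h after IONT and 4 each at 48 h and 3 d after IONC, among them C1qb (2.51, 3.11 and 2.80). Their mean per array was 3.71 to 5.30 in injured retinas, against 3.28 to 3.60 in naive retinas. Of 6 endothelial markers 1 or 2 were called higher in each IONC group and 1 at 48 h and 3 d after IONT. Of 7 Müller glia markers 2 were called lower at 12 h and 48 h after IONT and at 12 h after IONC, and 1 higher at 7 d after either lesion and at 15 d after IONT. Ganglion cell markers averaged 6.66 to 6.98 at 7 d and 5.89 to 6.09 at 15 d after IONT, against 9.30 to 9.42 in naive retinas. The arrays at 7 d and 15 d after IONT were set against different sets of naive arrays, and no step between these times was tested. Rod markers were lower early, with 4 of 8 called at 48 h after IONT, among them Gnat1 (−1.38), and 5 of 8 at 12 h after IONC. The part of these cells in the changes of the ER genes was not tested.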

How the data were processed

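Retinal RNA of 35 samples was hybridised by the authors to 1-colour rat expression arrays, 4 retinas per array. The deposited log2 values had been background-corrected, normalised and summarised per probe set by the authors with GCRMA, whose version is not given in the sources used here, and were used without further scaling. Read depth does not apply to arrays, and the number of arrays limits the precision. Of 31099 probe sets, 57 controls were left out. Symbols came from the platform annotation, in which 20826 probe sets had 1 symbol, 436 several and 9780 none.

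One limma model (limma 3.58.1, R 4.3.3) was fitted to all arrays, with moderated statistics and Benjamini-Hochberg adjustment over 31042 probe sets. It was also run on simulated data, which held neither an outlying array nor a difference between the naive sets and so cannot bear on these. Calls followed the thresholds of the study's methods. Standard errors come from the fit and rest on pools of RNA. From each gene list, the 4 genes at most are named whose log2 change, averaged over 12 h, 48 h and 7 d of both lesions, was greatest in size. The 10 genes and the lists were chosen with earlier results of these data known. Steps between IONT 24 h, 3 d and 15 d and the combined alternative were added after the data were seen. Alternatives were other naive arrays, thresholds, array weights, cyclic loess, a replicate block (statmod 1.5.0) and each array left out.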

Additional observations from a re-analysis of the deposited data

Results flagged for a closer look

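The change of Herpud1 at 12 h differed between the lesions by a test of the difference itself (IONC minus IONT −1.11 on the log2 scale, adjusted p = 0.00282 by limma, −0.68 without IONC 12 h replicate 2). All 3 IONC arrays lay below all 3 IONT arrays, as they did at 8.62% of all probe sets.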

How the results depend on the processing

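With all arrays, 4 changes of the 10 genes were called after IONT, 9 after IONC, 1 between the lesions and 0 between times. At an adjusted p under 0.05 without the B limit, 9 were called after IONT and 14 after IONC. With all 5 naive arrays for every group, 5 were called after IONC and 3 between the lesions, and with naive replicates 1 to 3 in their place 2 after IONT and 3 after IONC. Array weights gave 12 after IONT, 27 after IONC, 8 between the lesions and 6 between times, and cyclic loess 12, 20, 3 and 2 in that order. With naive replicates 1 to 3 and without IONC 12 h replicate 2, an alternative chosen after seeing the data, 7 were called after IONT, 2 between the lesions and 2 between times. Leaving out each array in turn gave 3 to 11 after IONT, 5 to 19 after IONC, 0 to 2 between the lesions and 0 to 2 between times. The highest of these came without IONC 12 h replicate 2, the lowest after IONC without naive replicate 4 or 5, and 0 between the lesions without IONT 12 h replicate 2 or 3. The cause of these shifts was not tested. The 14 called values kept their call in 615 of 686 combinations with 49 alternatives, lost it in 71 and changed sign in 0. Of those lost, 35 were of Herpud1 at 7 d after IONC. Among the 49 alternatives, 35 each left out 1 array, mostly from outside the groups compared, where the change itself cannot move. The share kept is thus not a measure of stability. With naive replicates 1 to 3 in place of all 5, every call of Calr and Pdia4 was lost. Deviations of arrays with the same replicate number had a median correlation of 0.024 over 168 pairs, of which 40 were above 0.1. For different numbers it was −0.009 over 396 pairs, with 61 above 0.1. A median over all groups cannot show whether some arrays were paired, and the main fit used no pairing. With the replicate number as a random block, 4, 9, 1 and 0 changes were called in the order above. With 2 arrays each, IONT 24 h, 3 d and 15 d have the widest errors.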
